A study of Mus musculus with 12 samples.

Results

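A set of 32 genes was higher in every Tn tumour than in any WT tumour by at least 2 times. The 12 tumours were grown in mice from the 4T1 line, mouse mammary carcinoma cells that serve to model triple-negative breast cancer, and their poly(A) RNA was sequenced as bulk tissue. In the 6 Tn tumours Cosmc had been silenced in the 4T1 cells with CRISPR/Cas9, and in the 6 WT tumours the parental 4T1 line had been used. All tumours share the 4T1 origin and the breast site. Whether the silenced cells were a single clone, and the strain and age of the mice and the size of each tumour, are not given in the sources used here, so an effect of Cosmc cannot be told apart from one of a clone. Genes were chosen by a rule on CPM (the count over the column total times 1000000): protein-coding, a mean of at least 5 CPM in Tn tumours, and a lowest Tn value at least 2 times the highest WT value. Of 10893 protein-coding genes that reached the mean, 32 met the rule (0.294%), and 54 genes met its mirror image, WT over Tn. The genes were selected on the Tn against WT difference itself, so their differences are given as a description with no test.

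Cosmc, the gene C1galt1c1, encodes the chaperone that the core 1 galactosyltransferase needs to extend O-linked glycans on serine and threonine. Without it, proteins keep the single N-acetylgalactosamine known as the Tn antigen, a ligand of the macrophage galactose-type lectins on macrophages and dendritic cells. A grown tumour mixes the injected carcinoma cells with T cells, macrophages, fibroblasts and vessels of the host, and each type brings its own transcripts. C1galt1c1 itself averaged 11.1 ± 0.674 CPM in Tn tumours and 19.9 ± 3.11 CPM in WT tumours (SD, n = 6 each), and the groups did not overlap. The edgeR quasi-likelihood test gave -0.80 ± 0.11 on the log2 scale (Tn over WT, SE, adjusted p = 0.000201).

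The depth ran from 113575859 to 156880766 counts per tumour. Tn tumour 4 stood apart in its summed B cell markers, with 979 CPM, while the other 5 Tn tumours held up to 16 CPM, and WT tumours 2.06 to 3.34 CPM. Tn tumour 6 stood apart in keratinocyte markers, with 3329.8 CPM, while the others held up to 140.3 CPM, and WT tumours 55.9 to 851 CPM. WT tumour 6 stood apart in adipocyte markers, with 2288 CPM, while Tn tumours held 35.6 to 521 CPM and the other WT tumours 24.9 to 761 CPM. Across all genes, 3752 of 19255 tested were higher (19.5%) and 3342 were lower (17.4%) in Tn tumours (edgeR, Benjamini-Hochberg adjusted p under 0.05).

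By known role the 32 genes fall into 7 genes of T cells, 5 lectins, ligands and adhesion or response genes of immune and vascular contact, 6 secreted proteins, 8 signalling and membrane proteins, many of them best known from neurons, and 6 enzymes, junction proteins and others. These groups were made after the genes were known. For each gene the lowest, the median and the highest of the 6 tumours are given in that order.

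**Figure D1:**
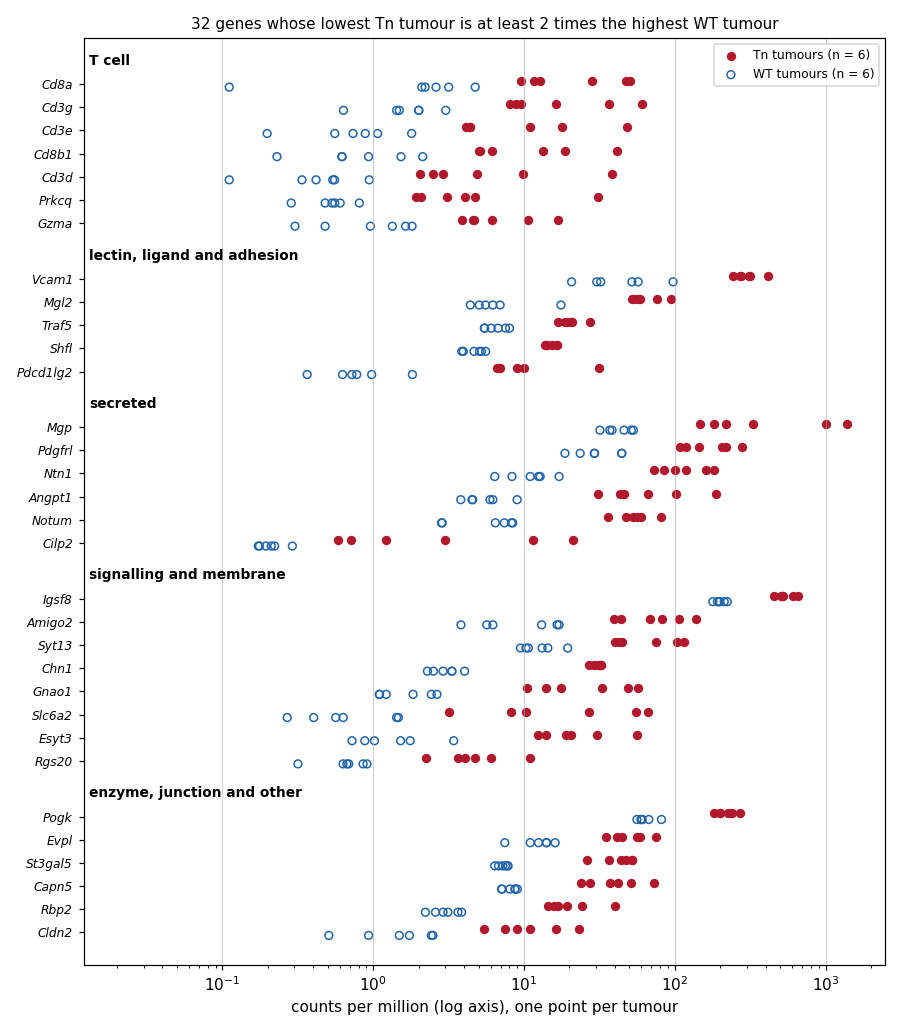
CPM of the 32 genes on a log axis, one point per tumour, with filled points for the 6 Tn tumours and open points for the 6 WT tumours, grouped by role. In every row the filled points lie right of the open ones, from a wide separation for Chn1 to a narrow one for Cilp2, and the filled points are spread widest for Cilp2, Slc6a2 and the T cell gene Cd3d.

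The T cell genes encode the signalling chains of the T cell receptor, the CD8 coreceptor of cytotoxic T cells, a kinase below the receptor and a granule protease. Their promoters are shown first because 3 of the 7 genes lie side by side. Cd3g, Cd3d and Cd3e lie within one stretch of GRCm39 chromosome 9, and Cd3g and Cd3d are read away from each other with 1354 bases between the genes. The 250 bases before the RefSeq start follow, from the minus strand at chr9:44891730-44891979 for Cd3g, the plus strand at chr9:44892834-44893083 for Cd3d and the minus strand at chr9:44920910-44921159 for Cd3e. Capitals mark the GATA motif GATAAG in Cd3g, and the STAT-type motif TTCNNNGAA and the TCF motif (CTTTGAA or CTTTGAT, here on the other strand) in Cd3d.
Cd3g: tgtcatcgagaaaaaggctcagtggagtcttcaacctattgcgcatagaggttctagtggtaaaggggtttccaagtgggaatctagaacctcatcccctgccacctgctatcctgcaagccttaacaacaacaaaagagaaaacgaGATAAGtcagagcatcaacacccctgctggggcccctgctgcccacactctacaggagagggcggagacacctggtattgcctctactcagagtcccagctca
Cd3d: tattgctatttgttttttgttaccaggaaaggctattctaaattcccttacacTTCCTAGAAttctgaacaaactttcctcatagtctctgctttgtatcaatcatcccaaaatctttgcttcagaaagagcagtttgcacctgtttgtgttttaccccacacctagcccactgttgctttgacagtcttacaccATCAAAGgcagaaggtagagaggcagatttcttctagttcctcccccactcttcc
Cd3e: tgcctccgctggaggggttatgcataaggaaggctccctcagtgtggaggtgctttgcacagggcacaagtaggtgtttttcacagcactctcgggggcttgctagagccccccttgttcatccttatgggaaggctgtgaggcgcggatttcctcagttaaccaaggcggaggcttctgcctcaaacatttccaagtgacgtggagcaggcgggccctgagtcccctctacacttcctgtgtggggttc
None of 9 motifs searched on both strands occurred in the Cd3e window. These matches are frequent in any promoter set: among all RefSeq mouse promoters of this length, 6.55% held the GATA motif, 7.02% the STAT-type motif and 7.48% the TCF motif.

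Cd3g, the gamma chain of CD3 (ENSMUSG00000002033, GRCm39 chromosome 9, 44880870 to 44891729), had 8.05, 13 and 61.0 CPM in Tn tumours, against 0.635, 1.75 and 3.03 CPM in WT tumours. Cd3e, the epsilon chain, had 4.14, 7.66 and 48.5 CPM in Tn tumours and 0.198, 0.810 and 1.80 CPM in WT tumours. Cd3d, the delta chain, had 2.04, 3.90 and 38.1 CPM in Tn tumours and 0.111, 0.478 and 0.942 CPM in WT tumours. In all 3 the highest value was that of Tn tumour 4, and the lowest WT value that of WT tumour 6.

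The CD8 coreceptor is a pair of chains encoded on chromosome 6, 35932 bases apart. Cd8a, the alpha chain (ENSMUSG00000053977, GRCm39 chromosome 6, 71350411 to 71356157), had 9.62, 20.4 and 50.2 CPM in Tn tumours, against 0.111, 2.41 and 4.75 CPM in WT tumours. Cd8b1, the beta chain that marks conventional cytotoxic T cells, had 5.00, 9.75 and 41.1 CPM in Tn tumours and 0.23, 0.777 and 2.13 CPM in WT tumours. Cd8a was the one T cell gene with its highest value in Tn tumour 2 and not in Tn tumour 4. Its WT values spread 42.8-fold, because WT tumour 6 held 0.111 CPM.

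Prkcq, the protein kinase C theta that signals below the T cell receptor, had 1.92, 3.58 and 31.2 CPM in Tn tumours and 0.286, 0.544 and 0.810 CPM in WT tumours. Gzma, a granule protease of cytotoxic T cells and natural killer cells, had 3.90, 5.39 and 16.8 CPM in Tn tumours and 0.303, 1.15 and 1.81 CPM in WT tumours. Prkcq rested most on a single tumour: its log2 ratio of means, Tn over WT, was 3.85 with all tumours and 2.54 without Tn tumour 4. The same omission moved Cd3d to 3.20 from a value of 4.38 over all tumours, Cd3e to 3.25 from 4.10 and Cd8b1 to 3.26 from 3.88. Every T cell gene still lay at least 2 times above the highest WT tumour in the other 5 Tn tumours, as the rule on the lowest Tn value requires.

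T cell markers outside the rule were also higher. Of 11 other T cell markers tested, 9 passed the test as higher in Tn tumours and 1 as lower (edgeR, adjusted p under 0.05), with a median log2 fold change of 3.08, and 2 were lower without Tn tumour 4. Trac, the constant region of the T cell receptor alpha chain, averaged 22.5 ± 29.0 CPM in Tn tumours and 2.30 ± 0.773 CPM in WT tumours, a log2 fold change of 3.29 ± 0.67 (edgeR adjusted p = 0.00262). Lck, the kinase that phosphorylates CD3 chains, rose by 2.75 ± 0.53 (edgeR adjusted p = 0.00186). Thy1, which fibroblasts also express, fell by 0.84 ± 0.14 on the log2 scale (edgeR adjusted p = 0.000810). Trbc2, a constant region of the T cell receptor beta chain, met both numeric limits of the rule, with a lowest Tn value 3.04 times the highest WT value, but is annotated as a receptor segment and not as protein-coding.

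Without Thy1, the other 10 T cell markers summed to 30.6 to 496 CPM in Tn tumours and 18.9 to 41.5 CPM in WT tumours, so the groups overlapped in the sum. The CD3 and CD8 genes could not overlap, because the rule selected them for that. With Thy1 the 11 markers summed to 163 to 709 CPM in Tn tumours and 255 to 351 CPM in WT tumours. Natural killer markers other than Gzma passed as higher in 10 of 11 cases with none lower (1 without Tn tumour 4), and summed to 68.0 to 293 CPM in Tn tumours and 18.4 to 47.1 CPM in WT tumours. Of the other cytotoxic granule and effector genes, 13 of 16 were higher and 1 was lower (0 with any of several tumours left out). Gzmb, the granzyme that cleaves caspases, rose by 2.85 ± 0.48 to a mean of 22.3 CPM in Tn tumours, against 3.17 CPM in WT tumours (edgeR adjusted p = 0.000925). Prf1, the pore-forming perforin, rose by 2.79 ± 0.45 (edgeR adjusted p = 0.000708). In bulk samples fewer cells of a type and less RNA per cell cannot be told apart, and the same holds for more cells and more RNA.

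The group of lectins, ligands and adhesion or response genes varied least among Tn tumours, with a median ratio of highest to lowest Tn tumour of 1.70. The ratio ran from 1.22 for Shfl to 4.75 for Pdcd1lg2, and among WT tumours its median was 3.99. Mgl2, the mouse macrophage galactose-type lectin 2, which binds terminal N-acetylgalactosamine and so the Tn antigen (ENSMUSG00000040950, GRCm39 chromosome 11, 70021155 to 70028376), had 52.3, 57.9 and 93.8 CPM in Tn tumours, against 4.41, 5.89 and 17.6 CPM in WT tumours. The highest WT value was that of WT tumour 2, and the next WT tumour held 6.95 CPM. Its close paralog Clec10a, the macrophage galactose-type lectin 1, averaged 8.22 ± 5.13 CPM in Tn tumours and 5.45 ± 3.06 CPM in WT tumours, and its difference did not pass the test (log2 fold change 0.63 ± 0.52, edgeR adjusted p = 0.360). The difference between the 2 lectins was not tested, and reads that fit both copies are uncertain.

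Macrophage markers, none of which met the rule, were higher in 8 of 12 cases and lower in none. Their sum was 1990.1 to 6199.8 CPM in Tn tumours and 1319 to 2625 CPM in WT tumours, and C1qa, the complement chain made by tissue macrophages, rose by 1.61 ± 0.27 (edgeR adjusted p = 0.000973). Conventional dendritic cell markers were higher in 5 of 10 cases (3 without WT tumour 4) and lower in none (1 without WT tumour 1), and Xcr1, the receptor of cross-presenting dendritic cells, rose by 3.05 ± 0.60 (edgeR adjusted p = 0.00210). The part of these cells in the level of Mgl2 was not tested.

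Pdcd1lg2, the PD-1 ligand PD-L2, had 6.61, 7.95 and 31.4 CPM in Tn tumours and 0.365, 0.750 and 1.82 CPM in WT tumours. Tn tumour 2 stood alone at the top, followed by Tn tumour 4. Of the 14 other immune checkpoint genes, 10 were higher and none was lower (edgeR, adjusted p under 0.05). Its receptor Pdcd1 fell just outside the rule, with a lowest Tn value 1.969 times the highest WT value, and averaged 12.1 ± 7.68 CPM in Tn tumours and 1.46 ± 0.912 CPM in WT tumours. Cd274, the other PD-1 ligand, rose by 1.28 ± 0.39 (edgeR adjusted p = 0.0234) and missed the threshold without Tn tumour 2, at 1.04 (edgeR adjusted p = 0.0547).

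Vcam1, the adhesion molecule of endothelium, stroma and macrophages that binds the integrin of alpha 4 and beta 1 chains, had 244, 292 and 414 CPM in Tn tumours and 20.7, 42.2 and 97.5 CPM in WT tumours. Of 11 other adhesion genes, not all of them partners of Vcam1, 3 were higher and none lower (1 without Tn tumour 2). Of the chains of that integrin, Itga4, alpha 4, rose by 1.21 ± 0.40 (edgeR adjusted p = 0.0318) and missed the threshold without any one of Tn tumours 1, 2 and 4 and WT tumours 3, 4 and 6, and Itgb1, beta 1, did not pass (-0.11 ± 0.07, edgeR adjusted p = 0.255). Itgal, a chain of the leukocyte integrin that binds Icam1, rose by 1.69 ± 0.39 (edgeR adjusted p = 0.00558), and Icam1 rose by 0.91 ± 0.22 (edgeR adjusted p = 0.00760). Endothelial markers moved the other way, with none of 9 higher and 6 lower, and a sum of 211 to 428 CPM in Tn tumours and 329 to 555 CPM in WT tumours. The part of the vessels in the level of Vcam1 was not tested.

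Traf5, an adaptor of tumour necrosis factor receptors in lymphocytes and other cells, had 16.9, 19.9 and 27.3 CPM in Tn tumours and 5.46, 6.39 and 8.02 CPM in WT tumours. Among the other TRAF genes tested, 1 of 6 was higher and 2 were lower (1 with any of several tumours left out), beside 19.5% and 17.4% of all genes. The higher gene, Traf2, rose by 0.36 ± 0.06 (edgeR adjusted p = 0.00108). Shfl, the interferon-induced inhibitor of ribosomal frameshifting known as Shiftless, had 13.7, 14.8 and 16.6 CPM in Tn tumours and 3.87, 4.86 and 5.57 CPM in WT tumours. Its 6 Tn tumours lay within a 1.22-fold range. Shfl was not the only such gene to be higher. Of 29 type I interferon response genes tested, none of which met the rule, 21 were higher and 0 lower. Of 10 antiviral genes set beside Shfl, 5 were higher and 1 lower (0 with any of several tumours left out).

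The secreted group held both extracellular inhibitors and growth factors. Notum, an esterase that removes the lipid from Wnt proteins and so inactivates them (ENSMUSG00000042988, GRCm39 chromosome 11, 120544614 to 120552001), had 36.1, 54.3 and 81.2 CPM in Tn tumours, against 2.84, 6.94 and 8.42 CPM in WT tumours. Of 12 Wnt feedback and target genes, none passed as higher (1 without Tn tumour 1, 2, 5 or 6) and 6 passed as lower. Axin2, a negative regulator that Wnt signalling switches on, averaged 3.44 ± 1.83 CPM in Tn tumours and 8.10 ± 1.98 CPM in WT tumours, a log2 fold change of -1.21 ± 0.29 (edgeR adjusted p = 0.00653). Lgr5, a receptor of the R-spondins and a Wnt target in stem cells, fell by 1.94 ± 0.30 on the log2 scale (edgeR adjusted p = 0.000559), and Nkd2, an inhibitor of Dishevelled, fell by 1.45 ± 0.14 (edgeR adjusted p = 3.82e-05). The Wnt ligands went both ways, with 4 of 15 higher and 5 lower, beside 19.5% and 17.4% of all genes tested. Only 2 were higher without Tn tumour 3, WT tumour 2 or WT tumour 5. An antisense gene, Notumos, covers 29.4% of the Notum exons, and since counting did not use the strand their reads cannot be told apart.

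Ntn1, the guidance cue netrin-1, had 72.6, 109.8 and 183 CPM in Tn tumours and 6.40, 11.7 and 17.1 CPM in WT tumours. Its receptors divided. Neo1, neogenin, averaged 164 ± 20.1 CPM in Tn tumours and 95.6 ± 7.42 CPM in WT tumours (log2 fold change 0.82 ± 0.09, edgeR adjusted p = 6.60e-05). Unc5b, a repulsive netrin receptor of vessels, averaged 247 ± 50.5 CPM in Tn tumours and 383 ± 26.7 CPM in WT tumours (log2 fold change -0.59 ± 0.13, edgeR adjusted p = 0.00364), and Unc5a, Unc5c and Unc5d also fell. Of the other 22 neuronal and axon guidance genes, 3 were higher and 8 lower. Slit2 and Slit3, secreted repulsive cues, fell by 1.6 ± 0.16 (edgeR adjusted p = 4.29e-05) and 1.51 ± 0.12 (edgeR adjusted p = 7.48e-06) on the log2 scale.

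Angpt1, angiopoietin 1, the ligand that activates the endothelial receptor Tie2, had 31.1, 56.2 and 188 CPM in Tn tumours and 3.81, 5.26 and 9.01 CPM in WT tumours. Tek, which encodes Tie2, averaged 5.54 ± 1.49 CPM in Tn tumours and 14.3 ± 4.98 CPM in WT tumours (log2 fold change -1.34 ± 0.26, edgeR adjusted p = 0.00180). The context-dependent antagonist Angpt2 did not pass, at 0.18 ± 0.20 (edgeR adjusted p = 0.493). Ligand and receptor thus differed in opposite directions. Tek is itself among the 9 summed endothelial markers. The median of their sum was 304 CPM in Tn tumours and 519 CPM in WT tumours, and the groups overlapped.

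**Figure D2:**
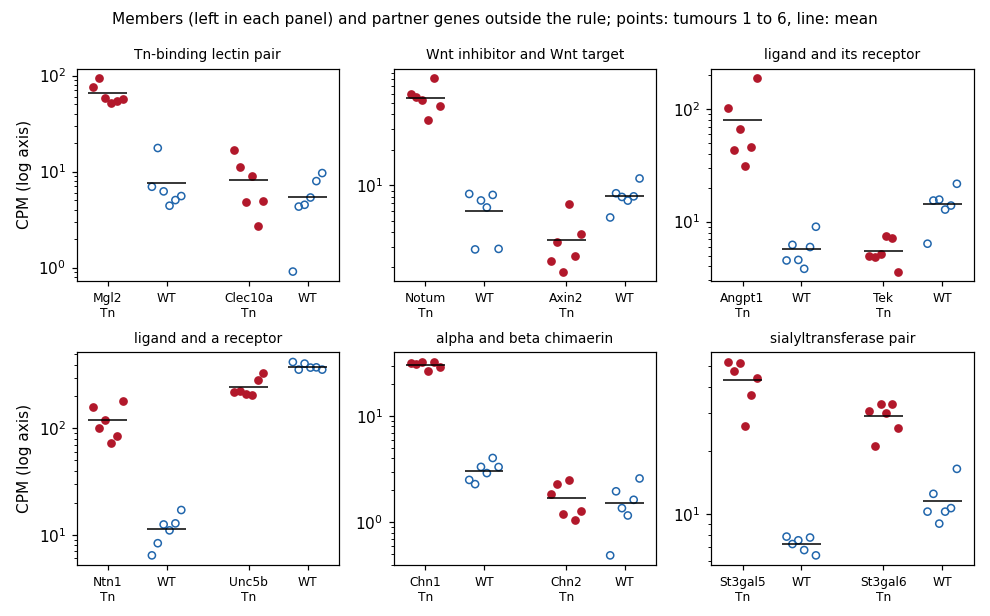
CPM on log axes of 6 genes that meet the rule, left in each panel, and of a partner gene outside it, right; points are tumours 1 to 6, filled for Tn and open for WT, and lines are means. Mgl2 separates the groups where Clec10a overlaps, Axin2, Tek and Unc5b are lower in Tn tumours beside higher Notum, Angpt1 and Ntn1, Chn2 overlaps between the groups where Chn1 does not, and St3gal6 is higher together with St3gal5.

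Mgp, the matrix Gla protein that inhibits calcification, had 147, 273 and 1395 CPM in Tn tumours and 31.9, 42.2 and 53.2 CPM in WT tumours. Tn tumours 3 and 6, at 1011 and 1395 CPM, stood well above the other 4. Per kilobase of exon Mgp had the highest level of the 32 genes, a mean of 461 CPM per kb in Tn tumours and 36.2 CPM per kb in WT tumours. Pdgfrl, a secreted protein that resembles the PDGF receptors, had 109, 175 and 279.6 CPM in Tn tumours and 18.7, 29.4 and 44.6 CPM in WT tumours. Pdgfra, a PDGF receptor of fibroblasts and other mesenchymal cells, rose by 1.03 ± 0.21 (edgeR adjusted p = 0.00247), while Pdgfrb, that of pericytes, fell by 0.93 ± 0.16 (edgeR adjusted p = 0.000984). Cilp2, a cartilage matrix protein, had 0.586, 2.11 and 21.3 CPM in Tn tumours and 0.173, 0.202 and 0.291 CPM in WT tumours, and only Tn tumours 3 and 6 were above 10 CPM.

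Mesenchymal cells are a known source of Mgp, Angpt1 and Pdgfrl, but their usual markers were lower. Of 10 fibroblast markers 1, Pdgfra, was higher and 9 were lower, with a sum of 3186 to 4723 CPM in Tn tumours and 8205 to 21431 CPM in WT tumours. Col1a1, the main fibrillar collagen chain, fell by 1.84 ± 0.22 on the log2 scale (edgeR adjusted p = 0.000111). Of 8 pericyte and smooth muscle markers, none was higher (1 without Tn tumour 2) and 6 were lower. No marker of either list was near 0 in the tumours. Whether carcinoma cells or host cells carry the secreted genes was not tested.

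**Figure D3:**
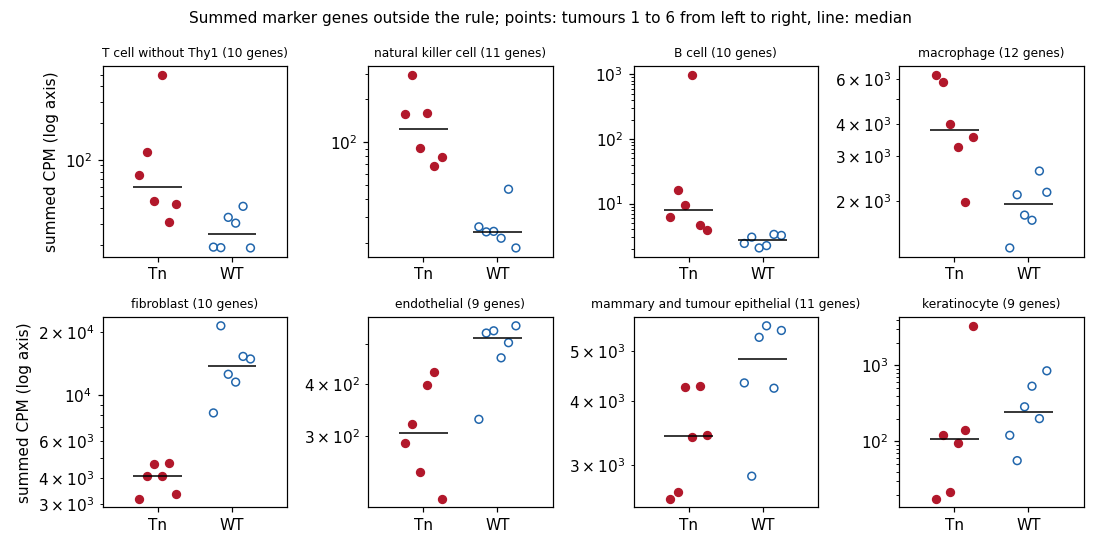
Summed CPM of 8 cell marker lists on log axes, without genes that meet the rule; filled points are Tn tumours and open points WT tumours, 1 to 6 from left to right, and lines are medians. Natural killer sums lie higher in all 6 Tn tumours, at 68.0 to 293 CPM against at most 47.1 CPM in WT tumours, while fibroblast sums lie lower and B cell and keratinocyte sums each have a single high Tn tumour.

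Of the signalling and membrane genes, Chn1 was both the most clearly separated and the most even. It encodes alpha-chimaerin, a GTPase-activating protein for Rac known from axon guidance (ENSMUSG00000056486, GRCm39 chromosome 2, 73441004 to 73605690). Chn1 had 26.8, 31.6 and 32.4 CPM in Tn tumours, against 2.29, 3.12 and 4.04 CPM in WT tumours, a lowest Tn value 6.63 times the highest WT value and a log2 ratio of means of 3.32. Its 6 Tn values lay within a 1.21-fold range. Chn2, the beta form, did not pass the test, at 0.18 ± 0.35 (edgeR adjusted p = 0.717).

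Gnao1, the alpha subunit of the G protein Go of neurons and endocrine cells, had 10.5, 25.2 and 57.1 CPM in Tn tumours and 1.10, 1.53 and 2.65 CPM in WT tumours. Rgs20, which speeds the GTPase of Gz and Gi family subunits, had 2.24, 4.43 and 11 CPM in Tn tumours and 0.317, 0.679 and 0.910 CPM in WT tumours. Slc6a2, the noradrenaline transporter of sympathetic neurons, had 3.17, 18.7 and 66.3 CPM in Tn tumours and 0.269, 0.599 and 1.47 CPM in WT tumours. These 3 genes were all highest in Tn tumour 3 or 6, and their Tn values spread 5.46-fold for Gnao1, 4.90-fold for Rgs20 and 20.9-fold for Slc6a2. Of the other G protein alpha subunits 2 of 14 were higher and 3 lower (5 without Tn tumour 6), beside 19.5% and 17.4% of all genes tested. Gnai2, the main inhibitory subunit of leukocytes, did not pass (0.03 ± 0.08, edgeR adjusted p = 0.783).

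Esyt3, a tether between endoplasmic reticulum and plasma membrane, had 12.3, 19.7 and 56.4 CPM in Tn tumours and 0.724, 1.27 and 3.42 CPM in WT tumours. Its relative Esyt2 fell by 0.58 ± 0.10 on the log2 scale (edgeR adjusted p = 0.00121). Syt13, an atypical synaptotagmin, had 40.3, 60.0 and 115 CPM in Tn tumours and 9.48, 11.9 and 19.5 CPM in WT tumours. None of the 11 other synaptotagmins tested was higher and 3 were lower, beside 19.5% and 17.4% of all genes tested. Some of these were near 0, such as Syt9, with a mean of 0.0752 CPM in Tn tumours. Esyt1, the other relative of Esyt3, did not pass (-0.26 ± 0.12, edgeR adjusted p = 0.103). Syt13 and Esyt3 were selected on the group difference and their relatives were not, and the difference between them was not tested.

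Amigo2, a leucine-rich adhesion protein, had 39.8, 75.6 and 138 CPM in Tn tumours and 3.82, 9.66 and 17.1 CPM in WT tumours. Amigo1 and Amigo3 did not pass the test. Igsf8, a partner of the tetraspanins CD9 and CD81, had 457, 519.5 and 659 CPM in Tn tumours and 179, 198 and 223 CPM in WT tumours. Igsf8 was the gene with the smallest mean ratio, 2.72, and its groups met the rule because they were tight, with a 1.44-fold range among Tn tumours and 1.24-fold among WT tumours. Cd9 rose by 0.67 ± 0.14 (edgeR adjusted p = 0.00252), and Cd81 did not pass (0.11 ± 0.08, edgeR adjusted p = 0.275). Schwann cell markers were lower in 1 of 5 cases (0 to 3 with a tumour left out) and higher in none, and the marker Foxd3 was below 0.1 CPM in the tumours. Schwann cells are the glia of peripheral nerve, and no cell marker list covered neurons.

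The last group holds a glycolipid enzyme, a retinol carrier and epithelial proteins. St3gal5, the sialyltransferase that makes the ganglioside GM3 (ENSMUSG00000056091, GRCm39 chromosome 6, 72074576 to 72131555), had 26, 45.7 and 52.4 CPM in Tn tumours, against 6.40, 7.39 and 7.85 CPM in WT tumours. Among its relatives that put sialic acid on galactose in the same linkage, 3 of 5 were higher and none lower. St3gal6 rose by 1.37 ± 0.16 (edgeR adjusted p = 8.58e-05) and St3gal3 by 1.01 ± 0.12 (edgeR adjusted p = 8.68e-05). Of the 10 other enzymes of ganglioside and glycosphingolipid synthesis 1 was higher (2 without WT tumour 2) and none lower, though 3 were lower without Tn tumour 4 and 2 without WT tumour 1. Ugcg, the glucosyltransferase at the start of that pathway, did not pass (0.03 ± 0.13, edgeR adjusted p = 0.861).

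Rbp2, the cellular retinol-binding protein best known from the intestine (ENSMUSG00000032454, GRCm39 chromosome 9, 98368168 to 98391834), had 14.5, 18.1 and 40.0 CPM in Tn tumours and 2.22, 3.02 and 3.86 CPM in WT tumours. The 250 bases before the RefSeq start of Rbp2, plus strand of GRCm39 at chr9:98372340-98372589, are shown as 1 of the 2 windows of this set with the TATA box motif TATAAA, in capitals on both strands at 38 and 15 bases before the start.
Rbp2: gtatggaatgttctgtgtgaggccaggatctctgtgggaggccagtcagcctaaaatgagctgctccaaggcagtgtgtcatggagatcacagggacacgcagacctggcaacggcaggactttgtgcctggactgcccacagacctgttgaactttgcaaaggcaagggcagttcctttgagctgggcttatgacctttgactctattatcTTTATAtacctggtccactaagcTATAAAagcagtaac
The other such window was that of Cldn2. The TATA motif occurred in 2 of the 20 windows found for 19 of the 32 genes, and in 12.4% of all RefSeq promoters, so it was no more frequent in the set. The windows of the set had a median GC content of 58.6%, against 52.4% for all promoters.

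Capn5, a calpain protease, had 24, 39.5 and 72.6 CPM in Tn tumours and 7.10, 8.39 and 9.04 CPM in WT tumours. Pogk, a nuclear protein derived from a pogo transposon with a KRAB domain, had 181, 213 and 271 CPM in Tn tumours and 56.1, 60.7 and 81.7 CPM in WT tumours. Tada1, on the other strand, shares 11% of the Pogk exon bases and averaged 19.3 CPM in Tn tumours and 14.1 CPM in WT tumours. Pogk was thus among the more abundant and more even members, with a 1.5-fold range among Tn tumours.

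Cldn2, a pore-forming claudin of leaky epithelia, had 5.44, 10 and 23.3 CPM in Tn tumours and 0.508, 1.61 and 2.49 CPM in WT tumours. Evpl, the desmosome-linked plakin envoplakin, had 34.8, 50.5 and 74.8 CPM in Tn tumours and 7.47, 13.3 and 16.1 CPM in WT tumours. Other epithelial genes moved mostly the other way or did not pass. None of 12 other claudins was higher (1 without WT tumour 6) and 2 were lower, with Cldn3 at a log2 fold change of -2.07 ± 0.40 (edgeR adjusted p = 0.00204). Ppl, periplakin, the partner of envoplakin, did not pass (0.07 ± 0.20, edgeR adjusted p = 0.817). A list of 14 other genes held plakins and cornified envelope genes, but also other junction genes and Epb41l genes. Of these 14, 6 were lower, namely Epb41l2, Epb41l3, Epb41l5, Pkp2, Pkp4 and the plakin Plec. The 1 higher gene was the transglutaminase Tgm1 (0.95 ± 0.35, edgeR adjusted p = 0.0478). Tgm1 missed the threshold without any one of Tn tumours 1, 4 and 6 and WT tumours 1 to 5. Mammary and tumour epithelial markers were higher in none of 11 cases (1 without Tn tumour 4) and lower in 4, with a sum of 2575 to 4283 CPM in Tn tumours and 2850.3 to 5604 CPM in WT tumours. None of 7 keratinocyte markers passed in either direction, though 1 passed as higher without Tn tumour 1 and 1 as lower without Tn tumour 6.

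Among the Tn tumours the T cell genes and the others followed different orders. The ratio of the highest to the lowest Tn tumour had a median of 8.22 over the 7 T cell genes, 2.76 over the 25 others and 1.40 over 10861 other protein-coding genes with a mean of at least 5 CPM. Among WT tumours the same medians were 8.48, 2.36 and 1.35, so the wide spread of the T cell genes was not particular to Tn tumours. Tn tumour 4 held the highest value for 6 of the 7 T cell genes. The same tumour held the lowest Tn value for 15 of the 25 others (60.0%), a position it held for 10.2% of the 10861 genes. Tn tumours 3 and 6 held the highest value for 8 of the 25 each, a position they held for 20.3% and 16.5% of the 10861 genes. The count of 15 stayed at 15 under TMM, RLE and upper-quartile scaling. Tn tumour 4, with the highest T cell genes, was also the tumour with the high B cell sum, and the part of that tissue in the low values of the other genes was not tested.

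**Figure D4:**
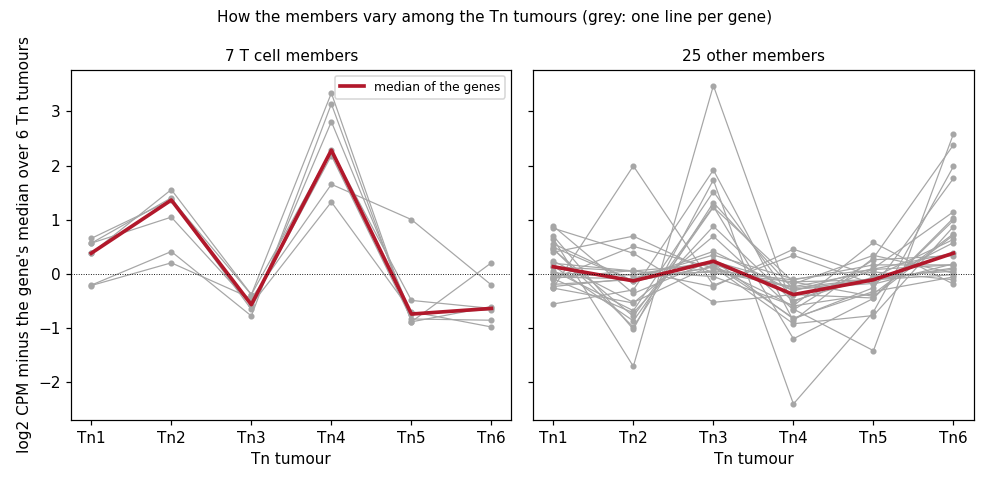
Log2 CPM minus the gene's own median over the 6 Tn tumours, for the 7 T cell genes at left and the 25 others at right, with 1 grey line per gene and the median of the genes in red. The T cell genes peak in Tn tumour 4, apart from Cd8a, which peaks in Tn tumour 2, while most of the others are lowest in Tn tumour 4 and several peak in Tn tumours 3 and 6.

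Among WT tumours the T cell genes also had a common order, with the highest value in WT tumour 5 and the lowest in WT tumour 6 for 6 of 7 genes each. The lectin and adhesion group was highest in WT tumour 2 for 4 of 5 genes. The genes just inside the rule were Traf5 (lowest Tn over highest WT 2.103), Syt13 (2.067), Igsf8 (2.055), Cd8a (2.023) and Cilp2 (2.012). Just outside lay Pdcd1 (1.969), Nkg7, a granule protein of cytotoxic cells (1.943), Hmgn3 (1.920), Phactr1 (1.904) and Ano9 (1.882). Cytotoxic cell genes thus stood on both sides of the limit.

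By position the genes spread over 12 chromosomes. Chromosome 9 held 6 (18.8%, against 5.66% of the 10893 genes), and chromosomes 1, 6, 8 and 11 held 4 each. The count of chromosome 9 includes Cd3g, Cd3d and Cd3e, which lie side by side, and that of chromosome 6 includes Cd8a and Cd8b1. Of the 8 pairs less than 1 Mb apart, 4 were within the CD3 and CD8 gene clusters. The others joined St3gal5 to Cd8a (718418 bases) and Cd8b1 (760097 bases), Rbp2 to Esyt3 (800181 bases) and Gnao1 to Slc6a2 (808298 bases).

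Neighbouring genes were tested within 1 Mb of each of the 32 genes. Given in detail are 5 of these neighbourhoods, 4 from the pairs and clusters above and that of Igsf8, chosen after the values were seen. Around Esyt3, 8 of 11 tested genes within 1 Mb were higher in Tn tumours and none was lower (1 without Tn tumour 5 or WT tumour 1; edgeR, adjusted p under 0.05), with a median log2 fold change of 0.72. They include Copb2, a coatomer subunit (0.82 ± 0.08, edgeR adjusted p = 4.09e-05), Mras, a Ras-like GTPase (1.07 ± 0.15, edgeR adjusted p = 0.000250), and Dbr1, the lariat debranching enzyme (0.88 ± 0.07, edgeR adjusted p = 8.28e-06), which are known for different roles. Around Igsf8, 26 of 42 were higher and 1 was lower (2 without WT tumour 1), with a median of 0.59, among them receptors of the SLAM family on leukocytes such as Slamf7 (2.77 ± 0.60, edgeR adjusted p = 0.00391) and housekeeping genes such as Copa, another coatomer subunit (0.55 ± 0.08, edgeR adjusted p = 0.000292).

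The rest of these 5 neighbourhoods had lower medians and held genes of both directions. Around St3gal5, 8 of 29 were higher and 3 lower, with a median of 0.11, and 5 were higher without any one of Tn tumours 2 and 5 and WT tumours 2, 3 and 4, while 5 were lower without Tn tumour 4. Around Cd3e, 20 of 48 were higher and 7 lower, with a median of 0.19. Around Slc6a2, 2 of 7 were higher and 2 lower, with a median of -1.14. The lower count there was 1 without any one of Tn tumours 1 to 5 and WT tumours 3 to 6. Beside Slc6a2, Lpcat2, an enzyme of phospholipid remodelling, rose by 1.14 ± 0.21 (edgeR adjusted p = 0.00134), and Mmp2, a gelatinase of fibroblasts, fell by 1.65 ± 0.23 (edgeR adjusted p = 0.000277). Neighbourhoods not given in detail also differed. Around Rbp2, in part the same genes as around Esyt3, 7 of 10 were higher and 1 lower (median 0.69). Around Mgp 6 of 16 were higher and 0 lower (median 0.57), and around Gnao1 11 of 29 and 2 (median 0.14). Around Mgl2 13 of 93 were higher and 21 lower (median -0.07). Over all 719 flanking protein-coding genes outside the rule, 32.8% were higher and 10.8% lower with a median log2 fold change of 0.17, against 22.2%, 18.7% and 0.03 over all 14865 protein-coding genes tested outside the rule.

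**Figure D5:**
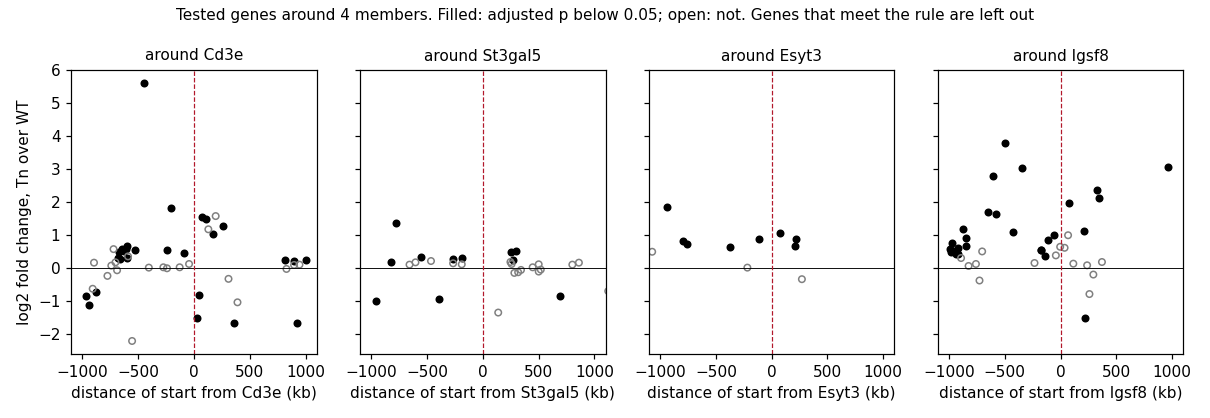
Log2 fold change, Tn over WT, of tested genes against the distance of their start from the start of Cd3e, St3gal5, Esyt3 or Igsf8 in kb, without genes that meet the rule; filled points passed at an adjusted p below 0.05 and open points did not. Around Esyt3 the filled points all lie above 0, around Igsf8 all but 1, and around Cd3e and St3gal5 they lie on both sides.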

How the data were processed

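Stranded poly(A) libraries of 12 tumours, 6 Tn and 6 WT, were sequenced from both ends, with 1 batch named, per the labels. The submitters' processing notes name fastp 0.23 for trimming, STAR 2.7.11a for alignment to GRCm39 and Subread 2.1.1 for counting. The deposited table holds raw counts over the exons of Ensembl 112 genes, per the file headers, made without a strand setting and without the option to count a pair once. Of counts of 1 to 20, 69.5% were even, so most pairs add 2 counts. Overlapping and antisense genes and close paralogs are therefore uncertain. The deposited column of gene lengths, in bases, gave CPM per kb.

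Of 57186 identifiers, 56630 had a symbol in a later annotation of GRCm39, which also gave the biotype. CPM were counts over the column total. Tests used edgeR 4.0.16 in R 4.3.3 on the deposited counts of all 12 tumours, with TMM scaling, filterByExpr and robust quasi-likelihood fits, two-sided, and Benjamini-Hochberg adjustment over 19255 genes at a threshold of 0.05. They were checked on simulated data. Log2 fold changes are Tn over WT, and the error after ± is the SE, or the SD for CPM means. The alternatives tried were DESeq2 1.42.0, limma voom 3.58.1, other scalings (RLE, upper quartile), other filters, other limits of the rule, the replicate number as a block, and each tumour left out. No labels say whether tumours of a group came from separate injections, and p-values measure the spread between these tumours.

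The members and the lists of markers and pathways were chosen with earlier results of these data known. The role groups, the gene families around each member, the marker sum without Thy1 and the alternatives for families and neighbourhoods were written after the members were seen. Genes outside the rule are named from the 4 members of each list with the smallest p, from those families, or as neighbours within 1 Mb. Others, such as Ugcg, were chosen after their values were seen. All 20 cell marker lists were examined. Those whose counts the report does not give were B cell (5 higher, 0 lower of 6), plasma cell (4 and 0 of 7), monocyte (3 and 1 of 8), plasmacytoid dendritic cell (2 and 0 of 7), neutrophil (0 and 1 of 11), mast cell (3 and 0 of 8), adipocyte (0 and 2 of 8), skeletal muscle (0 and 0 of 8), red blood cell (0 and 0 of 6) and osteoclast (0 and 5 of 6). Promoter windows are the 250 bases before the start in a RefSeq table of GRCm38.p6, placed on GRCm39 by exact match, each at 1 place. Besides those named, the motifs searched on both strands were RUNX (TGTGGT), ETS (CCGGAAG), AP-1 (TGAGTCA or TGACTCA), NF-kappaB and an interferon-response motif.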

Additional observations from a re-analysis of the deposited data

Results flagged for a closer look

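In 64 groups of 6 tumours (each of the 32 genes in Tn and in WT tumours), 5 held a tumour far from the others. Chance flags about 1 in 20 groups of independent, normally distributed values. That rate need not hold here, because the genes were selected on these values and the T cell genes shared a common order. Tn tumour 4 was high for Prkcq, at 31.2 CPM with the next Tn tumour at 4.72 CPM, for Cd3e, at 48.5 CPM with the next at 17.8 CPM, and for Cd3d, at 38.1 CPM with the next at 9.81 CPM. Pdcd1lg2 was high in Tn tumour 2, at 31.4 CPM with the next being Tn tumour 4. Mgl2 was high in WT tumour 2, at 17.6 CPM with the next WT tumour at 6.95 CPM. Tn tumour 4 also held the highest sum of B cell markers, and the part of that tissue in the 3 T cell genes was not tested.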

How the results depend on the processing

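The rule gave 30 to 35 genes under TMM, RLE and upper-quartile scaling, 28 when the mean limit was 10 CPM and 39 when it was 1 CPM, but 77 at a ratio of at least 1.5 and 9 at a ratio of at least 3. Upper-quartile scaling lost Igsf8 and Cilp2. With each tumour left out it gave 32 to 47 genes. Prkcq and Cd3d no longer reached the mean of 5 CPM without Tn tumour 4, nor Rgs20 and Cilp2 without Tn tumour 3, whose omission moved the log2 ratio of means of Cilp2 to 4.01 from 4.92. The 3 libraries that stood apart (Tn tumours 4 and 6 and WT tumour 6) were left out together in a further setting, which gave 44 genes. Pairs closer than 0.5 Mb numbered 4, and pairs closer than 5 Mb numbered 10. Over all genes, the edgeR test with the replicate block called 2998 higher and 2878 lower. Same-numbered tumours correlated between -0.125 and 0.158, above 0.1 in 2 of 6 pairs, so no strong shared signal was seen. Such correlations cannot tell whether the numbers pair the tumours. Leaving out each tumour gave 3210 to 3778 higher and 2833 to 3283 lower. Upper-quartile scaling called 3094 higher and 3844 lower, and moved the median of all genes to -0.04 from 0.01 with TMM. The log2 fold changes of Krt6a, Tcf7 and Wnt16 missed the threshold over all tumours, and passed as negative without 1 tumour. With each tumour left out they ran between -4.54 (without Tn tumour 6) and 5.05 for Krt6a, between -0.72 (without Tn tumour 4) and 0.74 for Tcf7, and between -2.03 (without Tn tumour 6) and 0.24 for Wnt16, which was -1.83 without the 3 libraries. Without Tn tumour 4, 7 of 11 neutrophil markers were lower, against 1 over all tumours, and limma voom called 0 of 6 B cell markers higher, against 5. With single tumours left out, the markers called higher ran from 0 (without Tn tumour 6) to 5 (without Tn tumour 1) for mast cells, against 3 over all tumours. Likewise 2 plasma cell markers were higher without Tn tumour 4 or any of WT tumours 1 to 4, against 4, 1 monocyte marker without any of WT tumours 3 to 6, against 3, and 5 plasmacytoid dendritic cell markers without Tn tumour 5, against 2. Adipocyte markers called lower ran from 1 to 4, against 2. The causes were not tested. Low WT values limit the ratios of Cilp2, Cd3d and Prkcq.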
